A study of Caenorhabditis elegans with 2 samples.

Results

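The regions described are the peaks of ZNF-207 on the X chromosome of Caenorhabditis elegans that lie at tRNA genes. A peak belongs to them if it is on X in the list called on both replicates together (the pooled list) and its summit, the base of highest signal, lies within 200 bp of a gene annotated as tRNA. They were chosen by position alone, and 260 of the 30000 pooled peaks met the rule, out of 5327 pooled peaks on X. They lie at 227 of the 276 tRNA genes of X. At the autosomal tRNA genes, the regions most like them, the same rule gave 304 peaks at 257 of 336 genes.

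Chromatin immunoprecipitation and sequencing (ChIP-seq) was done on whole hermaphrodites of strain xtl1186 at the young adult stage, 50 hours on from a synchronized start as starved L1 larvae. In these animals an insertion at the gene znf-207 (B0035.1) adds GFP and FLAG to the C-terminal end of ZNF-207, a zinc finger protein, per the labels, and the antibody was against GFP. There was 1 group with 2 biological replicates, and both replicates carry the same donor label. A possible control is named in the labels but was not analysed here, so no control value stands beside the signals. Whole animals mix all cell types of the worm, so a peak cannot be placed in a tissue, and a stronger peak in few cells cannot be told apart from a weaker one in many. Read counts are not in the peak lists. Library depth is therefore unknown, and no counting interval is given.

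Each peak has a signal, which is the authors' own value, and signals were compared only within a list. Peaks were therefore ranked by signal, with rank 1 the strongest. The pooled list runs from a signal of 6441 to one of 16.49, with a median of 25.49. By its label, this list of 30000 entries holds peaks and background. Each entry is called a pooled peak here, though some may be background, and shares of all pooled peaks are shares of this whole list. The thresholded list was made by the authors from both replicate lists and the pooled list. Its label names the irreproducible discovery rate procedure, which keeps peaks by how alike they rank in replicates. It holds 750 peaks, 176 of them on X. The 750 are exactly the strongest pooled peaks, and the weakest has a signal of 88.64. A thresholded peak is therefore one among the 750 strongest of the pooled list. Being thresholded does not by itself show that a given peak ranked alike in both replicates. The list of replicate 1 holds 30000 peaks, 5094 on X, and that of replicate 2 holds 25036 peaks, 4821 on X. Coordinates are ce11, and genes are those of the WBcel235 assembly.

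tRNA genes are transcribed by RNA polymerase III from promoter elements inside the gene itself, the A box near its start and the B box in the part that becomes the T arm. The factor TFIIIC recognizes these boxes, the B box above all, and recruits TFIIIB, which binds just upstream and brings in the polymerase. Transcription ends at a short run of T just after the gene. The anticodon, in its own loop, reads the codon, and all genes whose tRNAs carry the same amino acid form an isotype. Nematode tRNA genes exist in many identical copies, and the X chromosome holds a large share of them, here 276 of 612 nuclear genes (45.1%). Because promoter and product share the same letters, identical copies have the same internal promoter and differ only in what surrounds them.

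The genes below, read from the RefSeq genome of assembly WBcel235, show what the peaks sit on. Each is printed 5′ to 3′ on its own strand, and the capitals mark the anticodon, with T for the U of the tRNA, and then the B box, searched as GTTCNANNC on the gene strand. The intron-bearing Leu gene C04A11.t1 has the strongest peak of the X tRNA genes whose sequence occurs only a single time in the genome. The Pro, Arg and Tyr genes stand for sequences with several identical X copies, the Ala gene for the only such sequence with a thresholded peak at every X copy, and the His gene for the isotype with the lowest share of genes with a peak. The last gene lacks the B box letters, so that its only capitals are the anticodon, and yet has a thresholded peak.
C04A11.t1, Leu-CAA, chrX:13665555-13665673, plus strand: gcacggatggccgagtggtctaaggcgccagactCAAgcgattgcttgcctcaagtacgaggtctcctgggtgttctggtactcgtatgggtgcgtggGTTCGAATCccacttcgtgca
F46G11.t2, Pro-UGG, chrX:5801211-5801282, minus strand: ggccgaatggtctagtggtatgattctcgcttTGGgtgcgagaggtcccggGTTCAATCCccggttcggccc
C18A11.t2, Arg-ACG, chrX:8036685-8036757, minus strand: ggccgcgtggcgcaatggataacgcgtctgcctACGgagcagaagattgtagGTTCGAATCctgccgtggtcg
R11.t1, Tyr-GUA, chrX:16209769-16209852, minus strand: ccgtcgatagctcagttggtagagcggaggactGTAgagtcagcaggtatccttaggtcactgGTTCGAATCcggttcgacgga
F15G9.t1, Ala-UGC, chrX:9743589-9743660, plus strand: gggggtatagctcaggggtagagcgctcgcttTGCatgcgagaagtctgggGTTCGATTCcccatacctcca
C06G1.t1, His-GUG, chrX:16634830-16634901, minus strand: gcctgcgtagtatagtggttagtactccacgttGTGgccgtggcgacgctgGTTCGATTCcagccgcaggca
C16B8.t2, Pro-AGG, chrX:3970096-3970167, plus strand: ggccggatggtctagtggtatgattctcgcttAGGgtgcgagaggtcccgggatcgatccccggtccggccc

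The peaks at X tRNA genes stood high in the pooled list. Their median rank was 1400 (62 to 28570) and their median signal 68.3 (17.2 to 228). Autosomal tRNA peaks had a median rank of 2390 (57 to 29503) and a median signal of 54.5, and the other peaks on X a median rank of 15991 and a median signal of 24.6. Among the 100 strongest pooled peaks were 8 at X tRNA genes and 1 at an autosomal tRNA gene. In the thresholded list were 93 of the 260 X tRNA peaks (35.8%), against 2.50% of all pooled peaks. The same share was 18.4% of autosomal tRNA peaks (56 of 304) and 1.64% of the other X peaks (83 of 5067). Of the 176 thresholded peaks on X, 93 (52.8%) thus lay at a tRNA gene. Peaks of 1 library are not independent repeats, so no test was made of these shares.

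**Figure D1:**
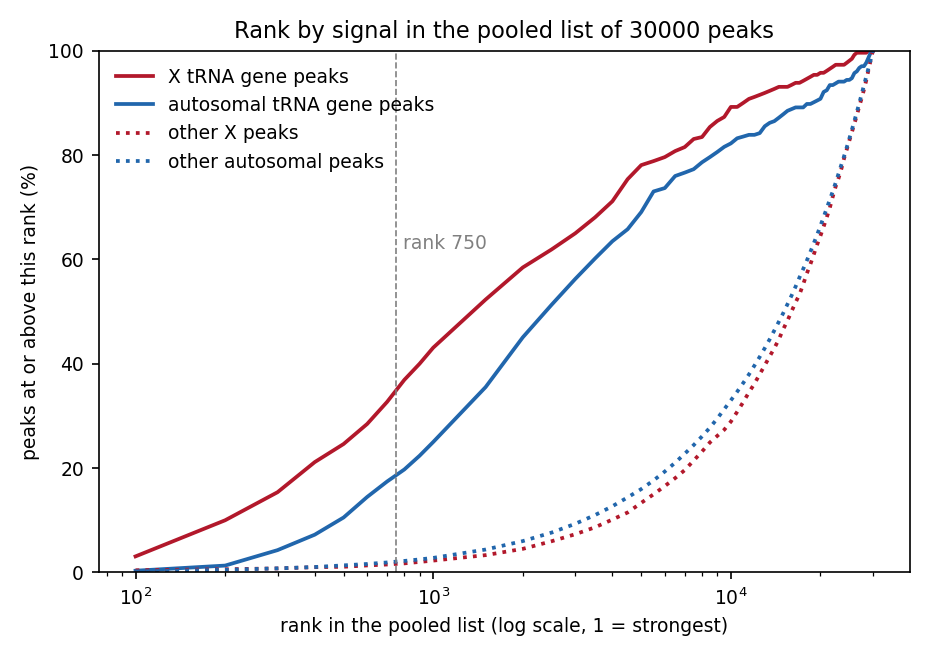
Share of peaks (%, vertical axis) at or above each rank of the pooled list (horizontal axis, log scale, 1 = strongest) for X tRNA gene peaks, autosomal tRNA gene peaks, the other X peaks and the other autosomal peaks; the dashed line is rank 750, where the thresholded list ends. The curve of the X tRNA peaks lies above that of the autosomal tRNA peaks, with 43.1% against 25% at or above rank 1000, and both lie far above the other peaks.

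The strongest X tRNA peak, with a signal of 228 and pooled rank 62, ranked 55 in replicate 1 and 83 in replicate 2. Its summit lies 24 bp upstream of the Gly-UCC gene M02F4.t1 (WBGene00023110, chrX:3036164-3036235, plus strand), which stands between protein-coding genes. The divergent Glu gene M02F4.t2 shares the summit. C28G1.t1 (Glu-UUC, chrX:8836113-8836184) followed with a signal of 222.6, pooled rank 64, and ranks 77 and 53 in replicates 1 and 2. It was the only X tRNA gene annotated inside an untranslated region, that of C28G1.2 on the same strand, and its summit also falls in the promoter window of a protein-coding gene, which reaches 500 bp before and 200 bp past a start. The Leu-CAA gene C04A11.t1 had a signal of 218.9, pooled rank 66, and ranks 72 and 102. All 3 of these peaks stood among the 102 strongest of each replicate list.

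The next peaks belong to genes of other isotypes. R04D3.t2 (Val-UAC, chrX:13307034-13307106) had a signal of 202.8 and pooled rank 74, with ranks 89 and 80 in replicates 1 and 2. The Ser-CGA gene C53C7.t2 (chrX:13046366-13046447), which shares its summit with the Ser-AGA gene C53C7.t1, had a signal of 193.2 and pooled rank 88, with ranks 118 and 78. W03G11.t1 (Lys-CUU, chrX:12106147-12106219) had a signal of 190.6 and pooled rank 91, with ranks 123 and 81. These 3 genes lie outside protein-coding genes and carry the anticodons of Val, Ser and Lys.

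F46G11.t2 and its divergent twin F46G11.t1, both Pro-UGG, share a summit with a signal of 189 and pooled rank 94, and ranks 82 and 160 in replicates 1 and 2. W02H3.t1 (Leu-UAG, chrX:11095673-11095754) had a signal of 188.3 and pooled rank 97, with ranks 103 and 118. F38G1.t2 (Asp-GUC, chrX:489868-489939) had a signal of 184.8 and pooled rank 101, with ranks 111 and 147. The Asp gene lies on the opposite strand in an intron of egl-17, a fibroblast growth factor gene. The Glu-CUC gene rte-5 (chrX:13448677-13448748), whose summit lies 133 bp past its first base, had a signal of 184.5 and pooled rank 105, with ranks 96 and 121, and shares that summit with the Ser gene F02D10.t2. F41D9.t3 (Asn-GUU, chrX:8404499-8404571, in an intron of the sulfate permease family gene sulp-3) had a signal of 184.4 and pooled rank 106, with ranks 102 and 107. Up to here replicate ranks differed by less than a factor of 2.

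F15G9.t1 (Ala-UGC), in an intron of the hemicentin gene him-4 on the same strand, had a signal of 179.8 and pooled rank 110, with ranks 99 and 150 in replicates 1 and 2. The Ala-AGC gene F15G9.t2 shares the summit. R04A9.t1 (Gln-UUG, chrX:410391-410462) had a signal of 170.5 and pooled rank 127, with ranks 186 and 91, and its summit lies 90 bp upstream of the gene. C04E7.t1 (Leu-AAG, chrX:353255-353336) had a signal of 167.1 and pooled rank 134, with ranks 153 and 140, and its summit too falls in a protein-coding promoter window. The Ala-UGC gene T07H6.t2 (chrX:6292278-6292349) completed the 15 strongest with a signal of 163.8 and pooled rank 142, and ranks 98 and 237. These 15 peaks were all among the 237 strongest of both replicate lists, and their nearest genes belong to 11 isotypes.

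Most X tRNA peaks recurred in the replicate lists. A summit within 200 bp was found in replicate 1 for 244 of the 260 (93.8%), in replicate 2 for 233 (89.6%) and in both for 217 (83.5%), against 35.4% of all pooled peaks in both. Of the remainder, 27 were in replicate 1 alone and 16 in replicate 2 alone, and none was in neither list. At autosomal tRNA genes 236 of 304 peaks (77.6%) were in both. The X tRNA peaks had a median pooled rank of 1400, and all pooled peaks one of 15000.5. Shares at equal rank were not compared. One of the 750 strongest peaks of replicate 1 lay within 200 bp of 107 X tRNA peaks (41.2%), against 3.03% of all pooled peaks and 20.1% of autosomal tRNA peaks. For replicate 2 the number was 96 (36.9%), against 2.99% of all pooled peaks and 16.8% of autosomal tRNA peaks. The share of pooled peaks lying by a top 750 peak was thus higher on X than on autosomes for each replicate. The peaks counted are those of the pooled list, made from both replicates, and neighbouring pooled peaks can lie by the same replicate peak.

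The order of the X tRNA peaks was alike but not the same in the replicates. Over the 217 peaks in both lists Spearman's rho of the ranks was 0.567, beside 0.489 over 236 autosomal tRNA peaks and 0.421 over all 10614 pooled peaks in both lists. These points share libraries and peak calling, and the numbers are descriptions. The ranks of a peak differed by a median factor of 2.31, and by less than a factor of 2 for 93 of 217. The 93 thresholded X tRNA peaks had a median rank of 404 (55 to 2075) in replicate 1 and of 399 (53 to 23128) in replicate 2, and 59 of them lay by the top 750 of both. Of the 167 other X tRNA peaks 48 lay by the top 750 of at least 1 replicate. The summits themselves lay a median of 24 bp from the pooled summit in replicate 1 and 20 bp in replicate 2.

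**Figure D2:**
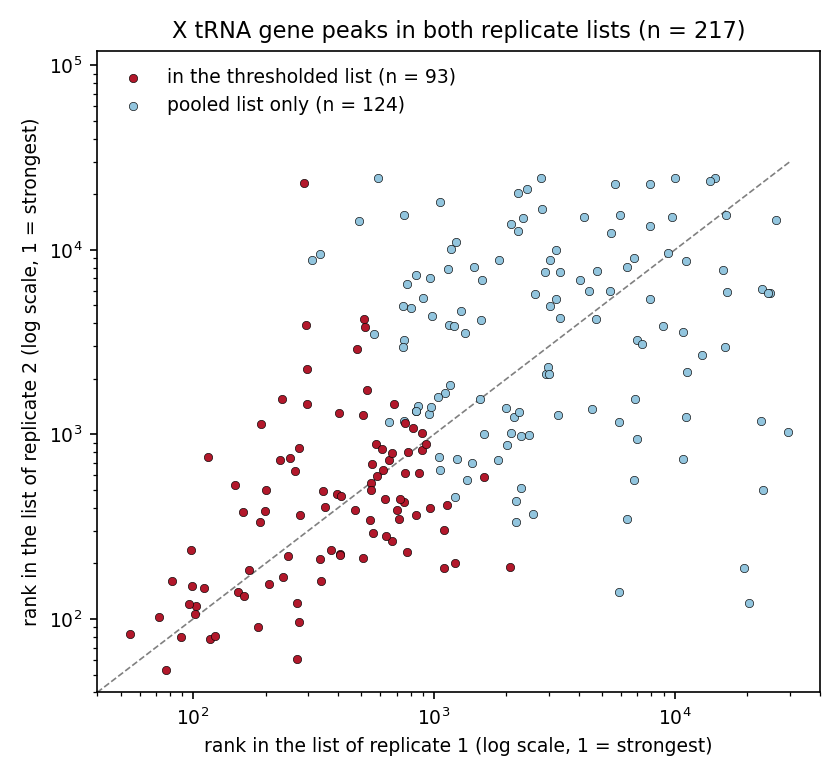
Rank in the list of replicate 1 (horizontal axis) against rank in the list of replicate 2 (vertical axis), both on log scales, for the 217 X tRNA gene peaks with a summit within 200 bp in both lists; 93 are in the thresholded list and 124 in the pooled list only, and the dashed line marks equal ranks. Thresholded peaks lie at ranks 55 to 2075 in replicate 1, and 1 of them lies at rank 23128 in replicate 2.

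The largest differences between the replicates were of 2 kinds. F42F12.t1, an intron-bearing Leu-CAA gene with a thresholded peak (signal 96.45, pooled rank 610), ranked 290 in replicate 1 and 23128 in replicate 2. C52G5.t1 (signal 65.63, pooled rank 1534) ranked 586 in replicate 1 and 24637 in replicate 2. For both, the strongest summit in reach gave the same ranks, so these 2 genes had a high peak in replicate 1 and a low one in replicate 2. The other 3 were weak summits beside a stronger peak, where the nearest summit was a weak one in replicate 1 and the strongest in reach in replicate 2. F52H2.t1 ranked 20359 in replicate 1 and 122 in replicate 2 by the nearest summit, but 271 and 122 by the strongest within 200 bp. K02A4.t2 ranked 19348 and 189 by the nearest, and 1101 and 189 by the strongest. Y59E1B.t2 ranked 23341 and 501 by the nearest, and 200 and 501 by the strongest.

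Many summits lay on the tRNA gene itself. Counting from the first base of the gene along its strand, the median summit lay at 36 bp, and they ranged from 195 bp before to 266 bp after that base. The rule reaches equally far on both sides of the gene. A median near the middle of the gene would thus also come from evenly spread summits. In the gene lay 114 summits (43.8%), upstream of it 71 (27.3%) and downstream 75 (28.8%), where the autosomal tRNA peaks had 106, 105 and 93 of 304. The thresholded X peaks lay closest, with 69 of 93 (74.2%) within 60 bp of the middle of the gene and a median distance from it of 31 bp. For the other X tRNA peaks this was 79 of 167 (47.3%) and 62.5 bp, and for thresholded autosomal tRNA peaks 31 of 56 (55.4%) and 52.5 bp. X tRNA peaks with the summit in the gene had a median signal of 76.5, those upstream 52.1 and those downstream 65.5. The 167 other peaks include 56 that were not the strongest of any gene. Only 4 of these lay in the gene, and paired summits were at least 199 bp apart. The part of this spacing in the contrasts of position and signal was not tested. Of the 204 peaks that were the strongest of a gene, 110 (53.9%) lay in it. The tRNA genes are mostly shorter than the usual peak width of 460 bp, so the summit, not the interval, was used for position. Only 9 X tRNA peaks had another width, all of them thresholded and ranked 62 to 283, and 8 of these were narrower, among them the first 4 named above at 135 to 211 bp.

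**Figure D3:**
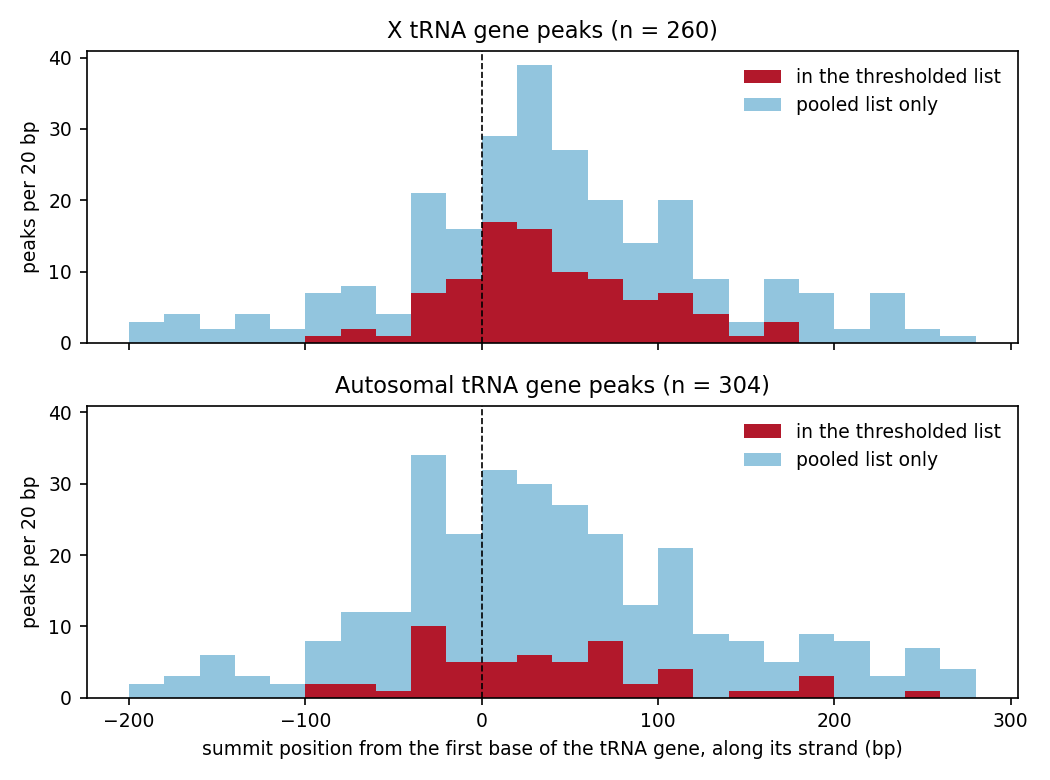
Number of peaks per 20 bp (vertical axis) by the position of the summit from the first base of the nearest tRNA gene along its strand (horizontal axis, bp; dashed line at the first base), for the 260 X tRNA gene peaks (upper panel) and the 304 autosomal ones (lower panel); colours separate thresholded peaks from peaks of the pooled list only. On X 51 of the 93 thresholded peaks (54.8%) have the summit in the gene.

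Some genes carried a pair of summits. At 65 X tRNA genes there were 2 peaks and at 162 there was 1. The summits of a pair lay 199 to 271 bp apart (median 202 bp). Whether they are separate binding sites was not tested. The stronger had a median of 2.37 times the signal of the weaker (up to 11.7 times). The 56 peaks that were not the strongest of any gene had a median signal of 42.0 (17.2 to 88.5). Of these 26 lay upstream, 4 in the gene and 26 downstream, and none was thresholded. The weakest X tRNA peak was of this kind. It lies 173 bp downstream of the first base of the Arg-ACG gene F09B9.t1, with a signal of 17.18, pooled rank 28570, no summit within 200 bp in replicate 1 and rank 642 in replicate 2, which is the rank of the stronger peak of the same gene. Counting only the strongest peak of each gene, 93 of 204 X peaks (45.6%) and 56 of 238 autosomal peaks (23.5%) were thresholded, with median signals of 81.7 and 62.2.

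The 200 bp limit divided few peaks. The 3 farthest inside it were at K05G3.t1 (195 bp, signal 33.64, rank 8110), F39B1.t1 (194 bp, 56.76, rank 2170) and C36C9.t2 (190 bp, 21.15, rank 21137). The nearest outside it were at W03G11.t1 (201 bp, 45.93, rank 3691), D1009.t2 (211 bp, 20, rank 23086) and C18A11.t2 (217 bp, 347.3, rank 26). The last is stronger than every X tRNA peak and is thresholded. From 201 to 400 bp lay 9 X peaks, and it was the only thresholded one.

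All 20 standard isotypes have genes on X, and every one had a thresholded peak at some X gene. Of 44 anticodons on X, 43 had a peak and 42 a thresholded one. The exceptions were both Arg anticodons, CCG, whose single gene ZK380.t1 had no peak, and UCU, whose 4 genes reached a signal of 66.84. By gene, 105 of the 276 X tRNA genes (38.0%) had a thresholded peak, 122 a peak in the pooled list only and 49 none. A summit in reach of 2 genes counts for both, also across isotypes, as at rte-5 (Glu) and F02D10.t2 (Ser). There were 32 such summits on X, 13 of them thresholded. Ala genes led, with 11 of 13 thresholded (84.6%), followed by Leu with 10 of 17, Asp with 7 of 12 and Ser with 10 of 18. At the other end stood His with 1 of 9, Met with 1 of 8, Cys with 1 of 7 and Phe with 1 of 6. Every X gene for Met, Thr and Trp had at least a pooled peak, while 5 of 9 His genes had none. The isotype is RefSeq's, and reading it from the folded anticodon arm gave the same for all 273 X genes that have one; C28G1.t5, F47E1.t3 and K02D3.t1 have none.

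Of the X tRNA genes 12 have an intron, which is removed from the tRNA after transcription. They are Tyr-GUA, Leu-CAA and Ile-UAU genes, 11 of them had a peak, and 6 a thresholded one. The Leu-CAA genes spanned the range, with 218.9 at C04A11.t1, 96.45 at F42F12.t1 and 28.84 at F02D10.t3, the last found in replicate 2 alone at rank 1692. The Ile-UAU gene C02B4.t1 had 115.6 (rank 355, replicate ranks 352 and 405).

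The strongest peak of each remaining isotype had the following values. At C02D4.t1 (Ile-AAU, in an intron of the tyramine receptor gene ser-2) the signal was 154.7 and the pooled rank 169, with ranks 170 and 185 in replicates 1 and 2. At T25B6.t2 (Thr-UGU) it was 153.4, rank 173, with 237 and 169. At C06G1.t1 (His-GUG) it was 147.3, rank 188, with 115 and 753. The His peak thus stood much higher in replicate 1. R11.t1 (Tyr-GUA) had a signal of 147.2, rank 191, with 162 and 380, and T28B4.t1 (Phe-GAA) one of 139.5, rank 207, with 189 and 336. C18A11.t2 (Arg-ACG) had 129.2, rank 257, with 269 and 61. A stronger pooled peak (347.3, rank 26) lies 217 bp from this gene. Whether rank 61 in replicate 2 belongs to that peak was not tested. C02F12.t1 (Met-CAU) had 127.9, rank 264, with 264 and 636. The lowest of these maxima were those of Trp, at sup-7 (123.5, rank 288, with 345 and 496), and of Cys, at F42D1.t1 (102.2, rank 514, with 404 and 1310).

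**Figure D4:**
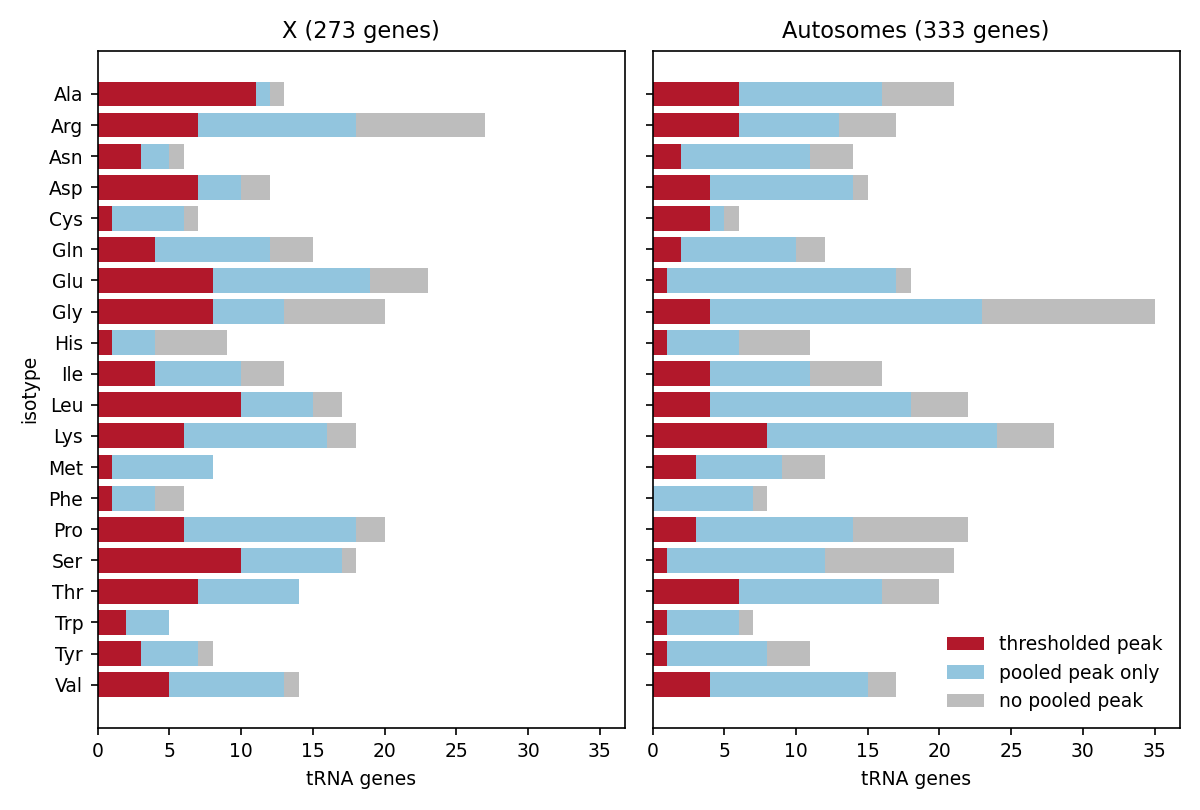
Number of tRNA genes (horizontal axis) of each isotype (vertical axis) with a thresholded peak, with a peak in the pooled list only and with no pooled peak, on X (left, 273 genes with an isotype) and on the autosomes (right, 333 genes of the same isotypes). Ala has 11 of 13 X genes with a thresholded peak and 6 of 21 autosomal ones; Cys has 1 of 7 on X and 4 of 6 on the autosomes.

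Between X and autosomes the isotypes mostly pointed one way. The share of genes with a thresholded peak was higher on X for 17 of the 20 isotypes, as for Ser (10 of 18 on X, 1 of 21 on autosomes), Glu (8 of 23 and 1 of 18) and Ala (11 of 13 and 6 of 21). It was lower on X for Cys (1 of 7 and 4 of 6), Met (1 of 8 and 3 of 12) and Arg (7 of 27 and 6 of 17). Summits counted for 2 genes were 32 of 260 tRNA peaks on X and 20 of 304 on autosomes. Over all genes the share with a thresholded peak was 38.0% on X, beside 16.7% on chromosome I, 31.6% on II, 18.8% on III, 14.1% on IV and 17.9% on V. Chromosome II was thus nearest to X. The genes differ in setting too, since 34.8% of the X genes and 57.7% of the autosomal ones lie within protein-coding genes. The part of the setting in the difference was not tested.

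The Trp genes include those known for amber suppressors, mutations in the anticodon that let a tRNA read a stop codon. They are described after their values were seen. Of 4 identical Trp-CCA genes on X, sup-7 in an intron of C03B1.2 had the thresholded peak given above. The other copies, sup-28 (signal 42.53, rank 4488), sup-21 (42.26, rank 4574) and sup-33 (38.69, rank 5730), were within a signal of 4 of each other and well below it. sup-28 was found in both replicates, at ranks 5442 and 12317, sup-21 in replicate 1 alone at rank 2913, and sup-33 in replicate 2 alone at rank 1842. The fifth Trp gene on X, rtw-5, has a sequence of its own and a thresholded peak (94.43, rank 643, with ranks 2075 and 191).

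Identical copies could be compared directly, because their letters and so their internal promoters are the same. The 276 X genes have 106 distinct sequences, and 33 of these occur more than a single time on X, in 203 genes. In 27 of the 33, some copies had a thresholded peak and others did not, and in 17 a thresholded copy stood beside a copy with no pooled peak at all. Of the 20 sequences with 5 or more X copies, 15 had a thresholded and a peakless copy. In only 1 did every copy have a thresholded peak, the Ala-UGC genes F15G9.t1 (179.8), T07H6.t2 (163.8) and T07H6.t1 (106.1). In 5 none did, namely 1 Met-CAU, 1 Arg-UCG, 2 Arg-UCU and 1 Gln-CUG sequence, with 2 or 3 copies each. Some of the 17 had no peakless copy with flanks made fully of 36-letter words unique in the genome. The unique share was 60.91% at F52E10.t4 (Glu-CUC), 85.15% at F22F1.t4 (Ser-AGA), and 38.48% and 68.18% at T25D1.t2 and T27B1.t1 (Phe-GAA). It was 4.24% to 53.94% at the 5 peakless His-GUG copies. The others of the 17 each had a peakless copy with fully unique flanks. The part of repeated flanks in the missing peaks was not tested.

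The Pro-UGG gene, with 13 identical X copies, shows the spread. F46G11.t1 and F46G11.t2 share the summit of signal 189, and ZK899.t1 had 160.2, all thresholded. Then came H06A10.t1 with 85.09, C48C5.t1 with 68.48 and C48C5.t3 with 67.81, the pair F23D12.t1 and F23D12.t2 with 64.31, the pair Y7A5A.t2 and Y7A5A.t3 with 55.14, and R04D3.t3 with 42.39. ZK678.t3 had 27.71, so that the highest was 6.82 times the lowest, and C16B8.t1 had no pooled peak. The flanks of all 13 are at least 94.55% made of 36-letter words found nowhere else in the genome. Below, the strongest, the weakest and the peakless copy are printed with 60 bp upstream and 20 bp downstream, and the capitals mark the gene, which is the same in all 3.
F46G11.t2, signal 189, chrX:5801191-5801342, minus strand: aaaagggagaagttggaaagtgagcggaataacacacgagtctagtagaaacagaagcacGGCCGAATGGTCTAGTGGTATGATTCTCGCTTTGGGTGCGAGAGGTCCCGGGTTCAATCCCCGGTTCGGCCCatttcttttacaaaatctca
ZK678.t3, signal 27.71, chrX:15751360-15751511, plus strand: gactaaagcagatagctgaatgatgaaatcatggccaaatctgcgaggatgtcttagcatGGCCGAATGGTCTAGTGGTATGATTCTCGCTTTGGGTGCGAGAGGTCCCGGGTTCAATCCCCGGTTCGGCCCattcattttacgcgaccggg
C16B8.t1, no pooled peak, chrX:3969496-3969647, plus strand: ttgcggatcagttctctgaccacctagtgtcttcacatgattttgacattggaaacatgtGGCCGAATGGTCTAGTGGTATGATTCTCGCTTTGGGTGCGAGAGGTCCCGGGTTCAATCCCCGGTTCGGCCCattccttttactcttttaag

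The Tyr-GUA gene has 6 identical copies, all on X and all with an intron. R11.t1 had a signal of 147.2 and C02B4.t2 one of 144.6, both thresholded. R11.t2 and R11.t3, which share a summit, had 45.68, R11.t4 had 37.97, and F56F10.t1 had no peak. R11.t1 and R11.t4 stand in the same run of 4 genes and differ by a factor of 3.88 in signal. All 6 copies have fully unique flanks. The strongest, the weakest and the peakless copy are printed in the same way.
R11.t1, signal 147.2, chrX:16209749-16209912, minus strand: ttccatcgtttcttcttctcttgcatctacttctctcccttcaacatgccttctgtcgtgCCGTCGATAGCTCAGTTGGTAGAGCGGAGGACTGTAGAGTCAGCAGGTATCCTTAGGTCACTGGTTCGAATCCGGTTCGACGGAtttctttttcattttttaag
R11.t4, signal 37.97, chrX:16208243-16208406, minus strand: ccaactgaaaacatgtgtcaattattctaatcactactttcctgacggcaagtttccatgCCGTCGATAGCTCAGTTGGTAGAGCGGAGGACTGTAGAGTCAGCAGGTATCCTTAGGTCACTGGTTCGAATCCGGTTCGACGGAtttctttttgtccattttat
F56F10.t1, no pooled peak, chrX:865369-865532, minus strand: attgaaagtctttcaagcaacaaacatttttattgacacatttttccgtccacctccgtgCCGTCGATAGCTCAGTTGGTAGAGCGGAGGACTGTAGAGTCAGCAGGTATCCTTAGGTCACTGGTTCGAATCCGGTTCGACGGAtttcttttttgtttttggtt

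The Leu-AAG gene has 9 copies, also on X alone and with fully unique flanks. C04E7.t1 (167.1), D1009.t2 (96.24), C05C9.t1 (90.36) and F14B8.t1 (90.17) had thresholded peaks. Below them stood C48C5.t4 with 68.80, C05E7.t3 with 35.35, F08F1.t1 with 32.18 and F08F1.t2 with 21.84, and C05C9.t2 had none. C05C9.t1 and C05C9.t2 are neighbours on the same strand, within a span of 521 bp, so copies with and without a peak can lie side by side. The strongest and the weakest Leu-AAG copies with a peak, and the copy without, follow.
C04E7.t1, signal 167.1, chrX:353235-353396, minus strand: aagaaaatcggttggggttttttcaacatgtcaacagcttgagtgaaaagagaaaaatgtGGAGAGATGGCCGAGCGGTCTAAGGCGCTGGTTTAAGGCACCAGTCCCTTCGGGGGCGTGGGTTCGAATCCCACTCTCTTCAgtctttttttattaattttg
F08F1.t2, signal 21.84, chrX:8417892-8418053, minus strand: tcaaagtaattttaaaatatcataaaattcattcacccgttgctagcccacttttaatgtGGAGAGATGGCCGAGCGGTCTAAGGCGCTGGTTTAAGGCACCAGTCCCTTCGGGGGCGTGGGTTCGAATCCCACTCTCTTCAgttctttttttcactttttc
C05C9.t2, no pooled peak, chrX:11162899-11163060, minus strand: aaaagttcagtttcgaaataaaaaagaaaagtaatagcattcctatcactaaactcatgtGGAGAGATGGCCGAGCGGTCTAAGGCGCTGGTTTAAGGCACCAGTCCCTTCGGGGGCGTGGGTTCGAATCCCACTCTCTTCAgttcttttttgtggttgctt

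The Arg-ACG gene, with 10 copies on X alone, was more even. It had a peak at every copy, 5 of them thresholded (129.2 to 89.83), 4 at 87.68 to 83.13 and 1, K01A12.t3, at 31.44. Among genes with many copies on both X and autosomes, Gly-UCC had thresholded peaks at 7 of 11 X copies, from 228 at M02F4.t1 to 92.11 at T10B10.t1 and T10B10.t2, and none at 3 copies of the run R04E5. Asp-GUC had them at 7 of 10, from 184.8 at F38G1.t2 to 98.68 at F22F1.t1. Glu-CUC had them at 4 of 12, from 228 at M02F4.t2 to 104.2 at rte-1.

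**Figure D5:**
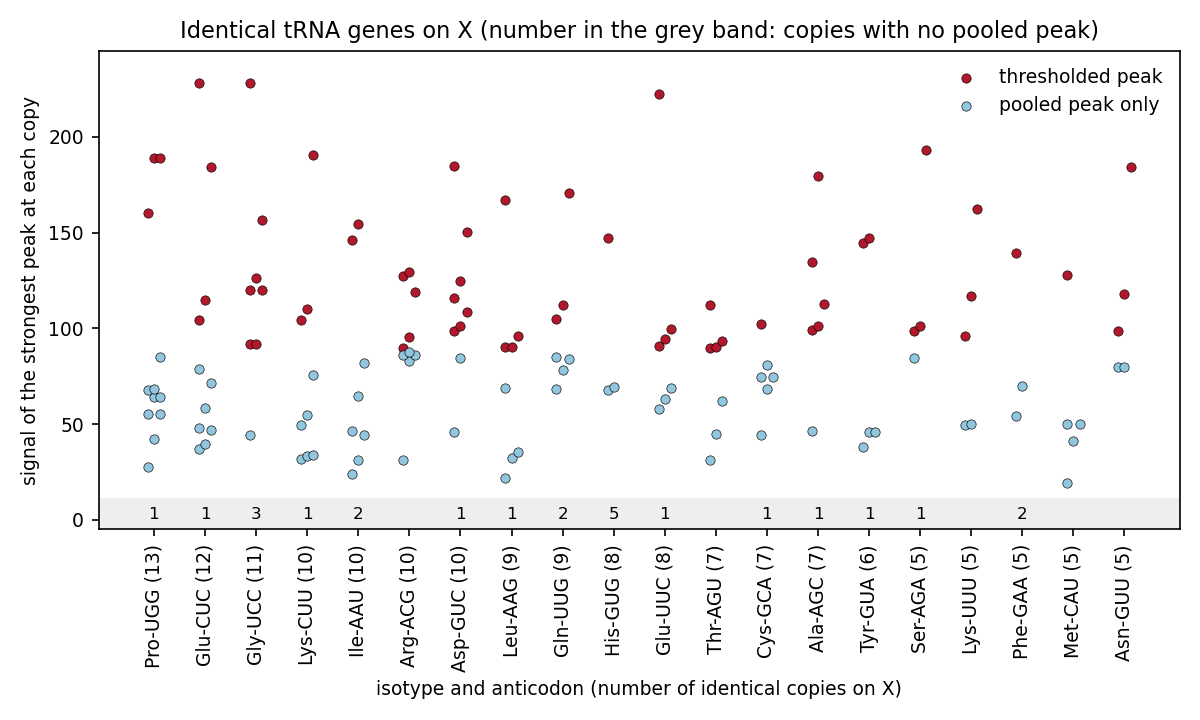
Signal of the strongest pooled peak (vertical axis) at each copy of the 20 tRNA gene sequences with 5 or more identical copies on X (horizontal axis, with the number of X copies in parentheses); colours separate thresholded peaks from peaks of the pooled list only, and the numbers in the grey band count copies with no pooled peak. Copies that share a summit have the same signal. Within most sequences the copies spread over several-fold, as from 27.71 to 189 for Pro-UGG.

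Sequences that occur on both X and autosomes gave a comparison over a shared set of gene sequences. Their copy numbers differ, as with 5 X and 13 autosomal copies of an Asn-GUU sequence. The totals below therefore weigh the sequences unequally on the X and autosomal sides. There were 43 of them, with 185 genes on X and 223 on autosomes. A pooled peak was present at 160 of the X genes (86.5%) and at 191 of the autosomal ones (85.7%). A thresholded peak was present at 77 (41.6%) on X and at 53 (23.8%) on autosomes, and the median strongest signal was 84.8 on X and 64.0 on autosomes. For these genes the share with any peak was thus close to equal and the share with a thresholded peak higher on X, as it was over all genes. Copies on the same chromosome were counted each, and no test was made.

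tRNA genes of X often stand in runs, here neighbours with gaps of at most 2000 bp. There were 59 runs with 153 genes, 42 of them pairs. Genes that stood alone had a thresholded peak in 61 of 123 cases (49.6%) and genes in runs in 44 of 153 (28.8%), and any pooled peak was present at 88.6% and 77.1%. On autosomes the thresholded shares were 19.7% of 218 genes alone and 18.6% of 118 in runs. Of the 260 X tRNA peaks 120 lay in runs, 32 of them thresholded (26.7%), and 32 summits were in reach of 2 tRNA genes, so that the genes of a run are not independent. In 38 runs every gene had a peak, and in 2 pairs none did, the Glu genes F52E10.t1 and F52E10.t2 and the Phe genes T25D1.t2 and T27B1.t1.

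The longest run, at chrX:8152546-8156707, holds 8 genes for Asp, Ser, Met and Ile. F22F1.t9 and F22F1.t8 share a summit of signal 84.48 (pooled rank 838, replicate ranks 311 and 8863). F22F1.t2 and F22F1.t3 share the thresholded one, of signal 101.5 (rank 529, replicate ranks 297 and 2257). F22F1.t6 had a pair of peaks of 81.31 and 79.86, and F22F1.t7 (Ile) had 23.76 (rank 17155). Weaker second peaks lay at F22F1.t3, with 64.74, and at F22F1.t8, with 42.41. F22F1.t4 and F22F1.t5, which lie between F22F1.t3 and F22F1.t6, had no peak. The shared summits of this run both stood much higher in replicate 1.

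The other long runs had fewer genes with a thresholded peak. A run of 6 identical His-GUG genes at chrX:14135045-14137010 had a peak at its first gene alone, F28H6.t2, with a signal of 68.05 and pooled rank 1412 (4548 in replicate 1 and 1376 in replicate 2). The 5 peakless copies, F28H6.t3 to F28H6.t7, lie in repeated DNA. Of the 36-letter words in their flanks 4.24% to 53.9% are unique in the genome, against 100% for F28H6.t2, and the part of this in the missing peaks was not tested. Outside the run the same gene had a thresholded peak at C06G1.t1, of signal 147.3, and 1 of 69.30 at C49F5.t1.

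The remaining 3 runs hold 5 genes each. At chrX:8623603-8624532, K01A12.t4 and K01A12.t5 (Cys) share a summit of signal 74.79, K01A12.t2 (Cys) had 68.61 and K01A12.t3 (Arg) had 31.44, while K01A12.t1 (Arg) had none. At chrX:8818100-8820256 the Cys gene R04E5.t5 had 44.17, and the 4 Gly-UCC genes R04E5.t1 to R04E5.t4 had no peak. At chrX:9090627-9091628, all of Gln, H08J11.t3 had a thresholded peak of 105 (rank 477, replicate ranks 1100 and 303), H08J11.t5 had 78.19, H08J11.t1 had 64.83 and H08J11.t2 and H08J11.t4 had none. Over these 5 runs, 3 genes of 29 had a thresholded peak.

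Being inside a protein-coding gene went with little difference. Of 180 X tRNA genes between protein-coding genes, 149 had a peak (82.8%) and 70 a thresholded one (38.9%). Of 95 in introns the numbers were 77 (81.1%) and 34 (35.8%). Within introns, tRNA genes on the opposite strand to the host had a thresholded peak in 20 of 45 cases and those on the same strand in 14 of 50. Promoter windows of protein-coding genes held 18 of the 260 peaks, and without these 85 of 242 were thresholded. Along the chromosome, cut into sixths of equal length from the left end, 12 of 24, 13 of 27, 16 of 60, 20 of 47, 31 of 68 and 13 of 50 tRNA genes had a thresholded peak. The lowest shares were thus in the third and the last sixth, and thresholded peaks occurred in every sixth.

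Almost all X tRNA genes carry the B box letters GTTCNANNC in the spliced gene, 268 of 276 (97.1%), and all 276 do with 1 mismatch. A match therefore did not separate genes with a peak from genes without. It was present in 103 of 105 genes with a thresholded peak, in 117 of 122 with a pooled peak only and in 48 of 49 with none. The 8 genes without it were examined after their values were seen. C16B8.t2 and C16B8.t3 (Pro-AGG) share the thresholded summit of signal 122.4, rank 295, with ranks 336 and 211 in replicates 1 and 2. The identical Met genes F22F1.t6, E01H11.t1 and F38E9.t1 had signals of 81.31, 72.54 and 49.96, K11E4.t2 (Lys) had 74.25 and C28G1.t5 had 39.16. ZK154.t1 (Asn) had no peak.

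The word was also counted from the summit. Within 50 bp of the summit on either strand it was found for 54 of 93 thresholded X tRNA peaks (58.1%), for 122 of all 260 (46.9%) and for 111 of 304 autosomal tRNA peaks (36.5%). Among the other 5067 X peaks the same window held it for 190 (3.75%). Since the window was drawn at tRNA genes, this restates the nearness of summit and gene. A run of TTTT within 20 bp after the gene, the usual terminator, was present at 105 of 105 genes with a thresholded peak, 121 of 122 with a pooled peak only and 47 of 49 with none. The genes without it were C28G1.t5, Y75D11A.t2 and F52E10.t2, of which only C28G1.t5 had a peak.

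The 60 bp upstream of the gene differed in composition with the strength of the peak. The median share of A and T was 56.7% at X genes with a thresholded peak (40% to 88.3%), 60% at those with a pooled peak only and 65% at those with none, where the whole X chromosome has 64.8%. The ranges overlapped widely. On autosomes the medians were 53.3%, 55% and 58.3%, in the same order. The letters TATAA in this window occurred upstream of 9.52% of X genes with a thresholded peak, 8.20% with a pooled peak only and 8.16% with none, against 9.13% of all X windows of that length. The 3 groups were thus near the chromosome's own share.

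Of the X tRNA genes, 49 had no pooled summit within 200 bp. By isotype these were 9 Arg, 7 Gly, 5 His, 4 Glu, 3 Gln, 3 Ile, 2 each of Asp, Leu, Lys, Phe and Pro, 1 each of Ala, Asn, Cys, Ser, Tyr and Val, and 2 with no isotype given. For 20 the nearest pooled summit lay within 500 bp, and the median distance was 997 bp. A peak in the list of replicate 1 was in reach of 10 and a peak of replicate 2 in reach of 15. Unique flanks, with at least 90% of their 36-letter words found a single time in the genome, were present at 34 of the 49, and 28 were fully unique. The following were chosen after their values were seen, as genes with fully unique flanks and an identical X copy with a thresholded peak. They were F48E3.t1 (Ala-AGC, 1899 bp from the nearest summit), F12D9.t6 (Cys-GCA, 246 bp), C06G1.t2 (Asp-GUC, 1064 bp) and C05E7.t2 (Gln-UUG, 346 bp).

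Unique flanks went with more peaks. Of X tRNA genes with flanks at least 90% unique, 195 of 229 had a peak (85.2%), against 32 of 47 with less unique flanks (68.1%). Thresholded peaks were present at 89 of the 229 (38.9%) and at 16 of the 47. On autosomes the thresholded shares were 18.1% of 276 genes and 25% of 60. Among genes with unique flanks the X share therefore also exceeded the autosomal one. How reads with several possible places were treated is not given in the sources used here, and its part in these counts was not tested.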

How the data were processed

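The files were narrowPeak lists in the ce11 build for replicate 1, replicate 2, both replicates pooled, and a thresholded set. Per the notes deposited with them, the replicate and pooled lists were derived from the replicate alignments and 1 further file whose kind is not stated, and the thresholded list from the other 3 lists. Which aligner and peak caller were used is not given in the sources used here. Signal values were made by the authors and deposited on a scale of its own in each list, so peaks were ranked by signal within a list. The deposited −log10 q-value broke ties in rank, and the summit offset deposited by the authors gave the summit. The label of the pooled list names its entries as peaks and background. The ce10 lists were not used. A label gives B0035.1 as the antibody where the description gives anti-GFP.

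Genes came from Ensembl release 115 of WBcel235, isotypes and sequence from RefSeq. Anticodons were read from the 5 stem pairs and 7 loop letters of the anticodon arm. A replicate summit within 200 bp counted as found, with the nearest taken. A flank was 200 bp on each side, cut into 36-letter words. Python 3.11.15 with numpy 2.4.6, pandas 2.3.3, scipy 1.17.1 and matplotlib 3.10.9 was used, and the assignment of summits, motif search and anticodon reading were tested on simulated data. With 1 group of 2 replicates, and the possible control in the labels not analysed here, there was no test.

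The regions and lists were chosen with earlier results of these data known. Named in full are the 15 strongest peaks, the weakest, the 5 whose replicate ranks differ most, the strongest of each isotype, the longest runs (4, with ties 5), 3 peaks on either side of the 200 bp limit, and up to 10 genes with no peak. Others are named as chosen later. Alternatives were smaller distances, each replicate alone, the 750 strongest peaks, other run gaps and other matching rules.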

Additional observations from a re-analysis of the deposited data

How the results depend on the processing

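Of 53 alternative values 40 stayed close to those reported, where close means within a factor of 1.5 for a count. Close thus includes a fall from 260 to 190 X tRNA peaks with the summit within 50 bp. It also includes a fall from 217 to 154 in both replicate lists when only the 5000 strongest of each were used. Medians were held to a narrower limit, so that a median rank of 1377 counted as moved from 1400. With the summit within 100 bp or 50 bp of the gene, the median rank of the X tRNA peaks became 1086 and 974.5, while 92 and 84 of the thresholded peaks remained in reach. In the lists without replicate 1 and without replicate 2, the median rank ranged from 1356 to 1377, the median position from 32 to 36 bp, the peaks from 236 to 253, and 223 X tRNA genes had a peak in either. The 750 strongest pooled peaks are the thresholded list itself, so this alternative restates thresholded values and is no separate check, though counted among the 53. Among them were 93 X tRNA peaks at 105 genes, with a median position of 33 bp, and 56 autosomal tRNA peaks at 65 genes. Of those X genes 103 had the B box letters and 2 did not, and with 1 mismatch allowed there were 0 genes without them. With run gaps of 1000 or 5000 bp, 102 or 152 peaks lay in runs. Chosen after seeing the data were a limit to genes with unique flanks, which left 85 X and 48 autosomal thresholded tRNA peaks, and the removal of protein-coding promoter windows, which left 85 on X. No paired analysis was possible because there was 1 group. With no control analysed here and no read counts in the lists, neither enrichment over background nor the precision of a signal can be given, and 2 replicates with 1 donor label may differ less than independent cultures would.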
